A study of Mus musculus with 6 samples.

Results

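The Reg family of small secreted lectins was examined as 5 genes, Reg1, Reg3a, Reg3b, Reg3g and Reg4, taken by name from the 54532 genes in the tables of newborn mouse intestine. Each name had 1 row, and all 5 genes passed the filter on low counts. The intestine came from newborn C57BL/6 mice, an inbred strain, given NECA or DMSO for 5 days, with 3 libraries per group. NECA is N-ethylcarboxamidoadenosine, an adenosine analogue that activates several adenosine receptors, and DMSO served as its solvent control. The series title sets the comparison within work on adenosine, necrotizing enterocolitis (an inflammatory bowel disease of newborns) and myeloid-derived suppressor cells. The stretch of bowel and the route of NECA are not in the labels, nor is it stated that each library is a different animal, so p-values here reflect library-to-library spread, which may be technical.

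Reg proteins consist of little more than a signal peptide and a C-type lectin domain, and they are secreted by epithelial cells of the gut and by the exocrine pancreas. Reg3b and Reg3g are antibacterial lectins of enterocytes and Paneth cells, and Reg3g binds peptidoglycan and helps to keep bacteria away from the surface of the small intestine. Both are known to be switched on by bacterial colonisation, through MyD88-dependent sensing and through interleukin signals that act on the transcription factor STAT3, and to be most abundant in the distal small intestine. Reg1 was first known as a protein of pancreatic juice and is also made in the proximal gut, and Reg4 marks enteroendocrine and secretory crypt cells.

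The depth was 15531996 to 18065078 counts per library. The 8 epithelial markers, such as Epcam (1359 to 1717 CPM) and Vil1 (655 to 1512 CPM), were present in every library, whereas 5 or 6 of the 7 stomach markers were at 0 in each. CPM is a gene's count per 1000000 counts of its library, adjusted with TMM (trimmed-mean) factors. NECA replicate 2 stood apart. Across genes, which are not independent replicates, its log2 CPM correlated with the other libraries at 0.919 to 0.956, against 0.969 to 0.992 among the other libraries, and its mitochondrial transcripts took 1.31% of the counts, against 2.80% to 8.39%. The fold changes of Reg3a, Reg3b and Reg3g and several list medians are given with and without it. The nearest profiles were found with all 6 libraries only.

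Of the 5 genes, 4 lie in 1 cluster on chromosome 6, in which GENCODE M21 on GRCm38 lists 6 genes within 98216 bases, all of the Reg family. Reg3b (ENSMUSG00000071356) lies on the plus strand at chr6:78370657-78373466. Next to it are Reg3d, which is no member here, and Reg3a (ENSMUSG00000079516, chr6:78380709-78383827, plus strand). Reg2, the other non-member, is followed by Reg1 (ENSMUSG00000059654, chr6:78422711-78428667, plus strand). Reg3g (ENSMUSG00000030017, chr6:78466269-78468872) closes the cluster on the minus strand. Reg4 (ENSMUSG00000027876, chr3:98222156-98236748, plus strand) lies alone on chromosome 3. Each of the 5 has a main transcript of 6 exons, with a coding sequence of 474 bases in Reg4 to 528 in Reg3a and Reg3b.

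The promoters of the 4 clustered members are shown because these neighbours had unlike levels in the same libraries. They are the 150 bases before the RefSeq start site (GRCm38.p6), written 5′ to 3′ on the gene's own strand. Capitals mark matches to TATAAA, the core letters of a TATA box, and to TTCNNNGAA, the letters bound by STAT factors.
Reg3b, chr6:78370735-78370884, plus strand: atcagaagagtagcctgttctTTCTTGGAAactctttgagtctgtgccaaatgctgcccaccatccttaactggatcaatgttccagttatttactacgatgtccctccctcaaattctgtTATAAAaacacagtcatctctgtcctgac
Reg3g, chr6:78468875-78469024, minus strand: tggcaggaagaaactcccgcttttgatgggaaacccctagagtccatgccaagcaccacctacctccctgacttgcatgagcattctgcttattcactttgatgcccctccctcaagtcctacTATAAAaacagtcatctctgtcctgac
Reg3a, chr6:78380559-78380708, plus strand: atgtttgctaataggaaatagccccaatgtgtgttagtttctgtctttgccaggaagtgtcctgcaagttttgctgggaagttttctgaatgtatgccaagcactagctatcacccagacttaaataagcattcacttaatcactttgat
Reg1, chr6:78425833-78425982, plus strand: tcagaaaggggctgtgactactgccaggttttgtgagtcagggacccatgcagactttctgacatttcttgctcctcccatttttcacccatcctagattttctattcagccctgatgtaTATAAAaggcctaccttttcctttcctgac

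Reg3b and Reg3g share the run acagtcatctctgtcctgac, 20 bases that end at the start site in both and occur in 2 of the 32851 mouse promoters of this table, these 2. The longest run shared by any other pair of the 7 family promoters was 12 bases. Over 250 bases before the start site, aligned bases were identical in 70.0% for Reg3b and Reg3g and in 56.0% to 70.0% over all 21 pairs. Both strands of that window were searched. TATAAA on the gene's own strand began 29 bases before the start in Reg3b, 27 before it in Reg3g and 30 before it in Reg1. Reg3g had a second match on the other strand, 161 to 156 bases before the start. The motif was absent from this window in Reg3a and Reg4, and was present in 12.4% of all promoters. TTCNNNGAA was present in 7.02% of all promoters and, among the 5 members, in Reg3b, 129 bases before the start. A match describes the letters and is not a measured binding site.

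Reg3b reached the highest level and had the widest spread of the 5 genes. It was at 5.58, 1.74 and 320 CPM in DMSO replicates 1, 2 and 3, and at 28.1, 5118 and 264 CPM in the NECA replicates. The highest library, NECA replicate 2, stood 15.99-fold above the next, DMSO replicate 3, and 2942-fold above the lowest, DMSO replicate 2. The groups overlapped, because DMSO replicate 3 lay above NECA replicates 1 and 3. Within DMSO the highest library was 184-fold above the lowest, and within NECA 182-fold. In NECA replicate 2, Reg3b took 0.568% of all counts (95% Wilson interval 0.565% to 0.572%, counting error only) and ranked 2 of 21946 genes by FPKM (counts scaled by gene length and library factor). In DMSO replicate 2 it ranked 11655 of 21817.

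Reg3g, its closest partner, had the same order of libraries. It was at 6.03, 2.54 and 70.5 CPM in the DMSO replicates and at 9.95, 1149 and 59.9 CPM in the NECA replicates. Again NECA replicate 2 was highest, 16.3-fold above DMSO replicate 3, and DMSO replicate 3 lay above NECA replicates 1 and 3. Of the 15847 genes tested, Reg3b ranked 3 in DMSO and 7 in NECA by the standard deviation of log2(CPM + 1) within the group, and Reg3g ranked 11 and 9. These standard deviations were 3.66 and 3.74 for Reg3b and 2.27 and 3.40 for Reg3g, where the median gene had 0.205 in DMSO and 0.228 in NECA.

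Reg3a, the third Reg3 gene among the members, was near the lower end of what these libraries resolve. Its counts were 27, 16 and 14 in DMSO and 46, 81 and 17 in NECA. That is 1.51, 1.07 and 0.875 CPM against 2.97, 4.04 and 0.976 CPM. NECA replicates 1 and 2 lay above all DMSO libraries, and NECA replicate 3 lay among them. Although Reg3a sits between Reg3b and Reg3g in the cluster, its highest library was 4.61-fold above its lowest.

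Reg1 had another order of libraries than the Reg3 genes. It was at 40.1, 9.97 and 4.88 CPM in the DMSO replicates and at 13.3, 2.39 and 5.91 CPM in the NECA replicates. DMSO replicate 1 was highest, 3.01-fold above NECA replicate 1, and the groups overlapped. The 3 libraries with most Reg3b, NECA replicate 2, DMSO replicate 3 and NECA replicate 3, were the 3 with least Reg1.

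Reg4 had the narrowest fold range of the 5 genes. It was at 47.7, 34.9 and 58.8 CPM in the DMSO replicates and at 86.8, 49.3 and 33.4 CPM in the NECA replicates. NECA held both the highest library, replicate 1, and the lowest, replicate 3, 2.60-fold apart. NECA replicate 2, where Reg3b and Reg3g were highest, was in the middle for Reg4.

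The other family genes of the cluster were almost silent. Reg2 had 0 of 101634540 counts over the 6 libraries, which allows up to 0.0295 CPM (3 counts, counting error only). Reg3d had 2, 2 and 3 counts in the DMSO libraries, against 0, 3 and 0 with NECA. Neither passed the filter, so neither was tested.

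**Figure D1:**
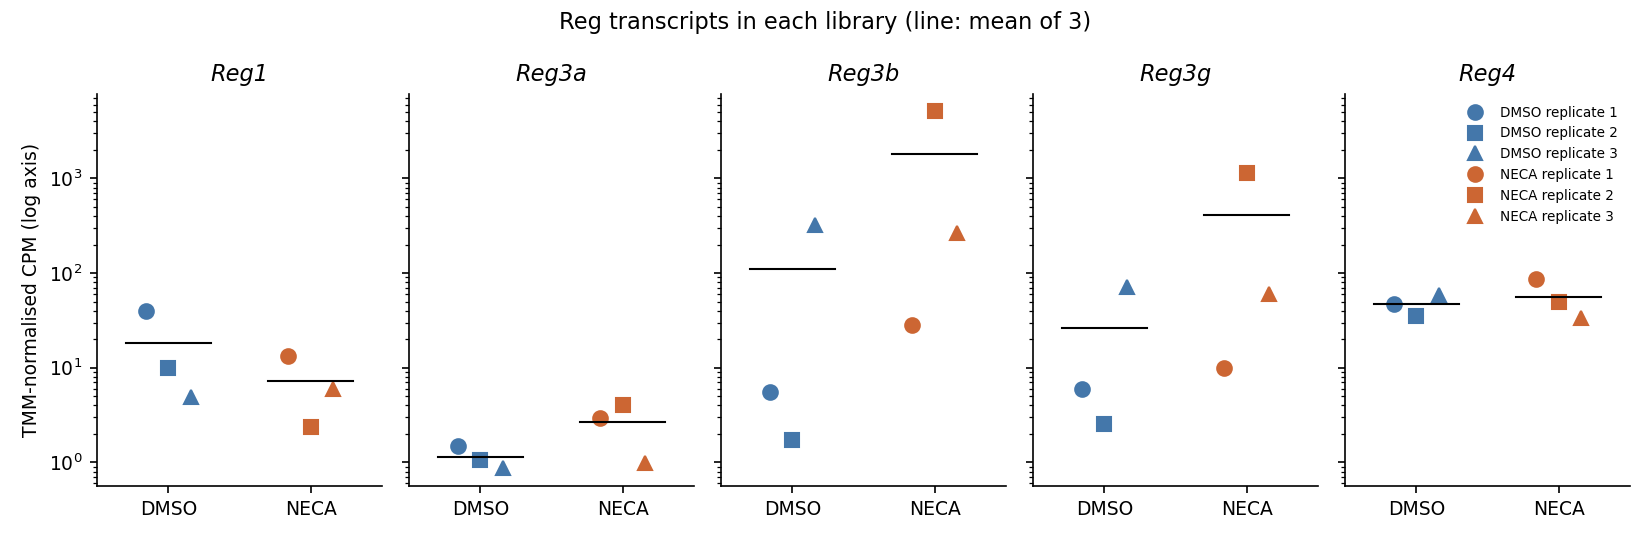
TMM-normalised CPM on a log axis for each Reg gene in the 3 DMSO (blue) and 3 NECA (orange) libraries, with symbols for the replicate number and a line for the group mean. Reg3b and Reg3g reach 5118 and 1149 CPM in NECA replicate 2, and every panel has overlapping groups.

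**Figure D2:**
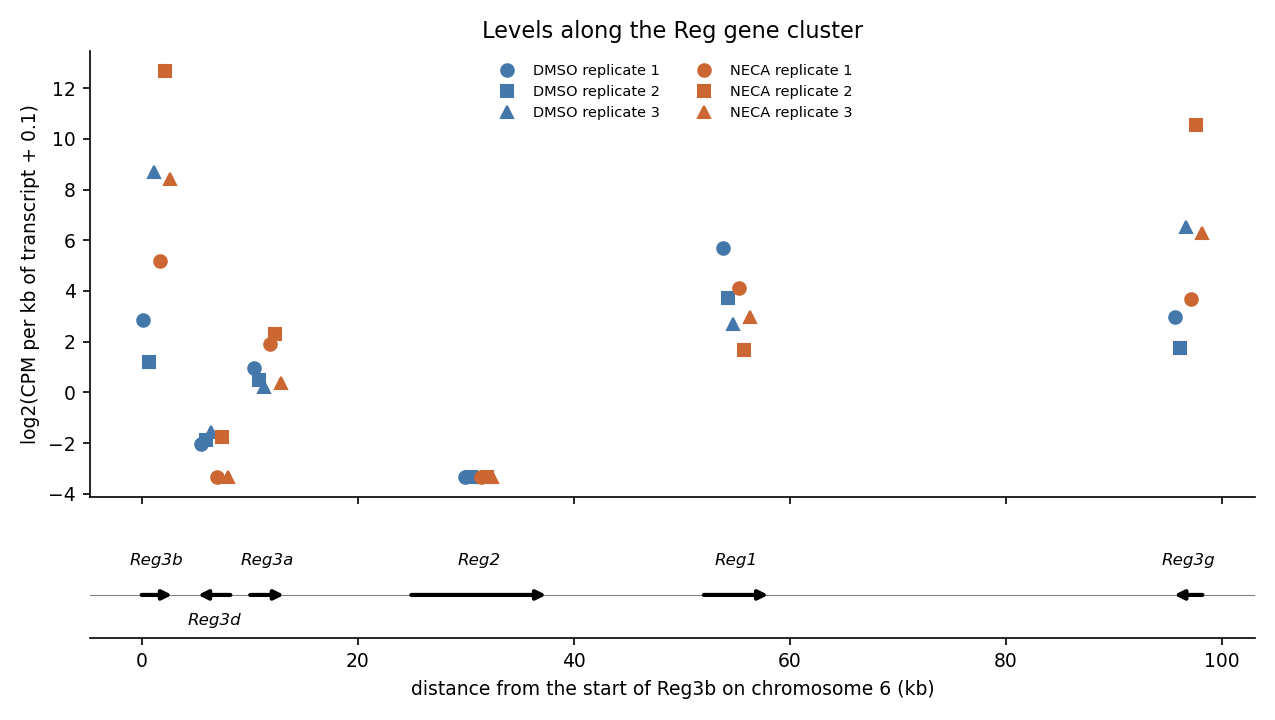
Levels of the 6 genes of the chromosome 6 cluster, as log2 of CPM per kilobase of the main transcript plus 0.1, against distance from the start of Reg3b in kilobases. Arrows show each gene's extent and direction of transcription, and each symbol is 1 library. The high and widely spread genes, Reg3b and Reg3g, lie at opposite ends, with Reg2 at 0 in every library between them.

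In the comparison of NECA with DMSO, no Reg gene passed the test. The test was edgeR's quasi-likelihood test over 15847 genes, with Benjamini-Hochberg adjustment and a threshold of 0.05. It called 0 of the 5 members, where it called 0% of all genes tested. At an unadjusted p under 0.05 it had 0 of the 5, against 5.48% of all genes. DESeq2, run as an alternative, also called 0 of the 5, and 0.0694% of all genes. It had 2 at an unadjusted p under 0.05, Reg3g and Reg3a, beside 1005 of the 15847 genes tested. The DESeq2 adjusted p was 0.778 for both Reg3g and Reg3a. The NECA and DMSO libraries did not overlap in 0 of the 5 members, against 13.7% of all genes.

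The sizes were large for Reg3b and Reg3g and their errors were large as well. Reg3b averaged 109 ± 183 CPM over the DMSO libraries and 1804 ± 2873 CPM over the NECA libraries (SD, n = 3 each), and its log2 fold change was 4.05 (SE 2.25; edgeR adjusted p = 0.738). Reg3g averaged 26.4 ± 38.3 and 406 ± 644 CPM, and its log2 fold change was 3.95 (SE 1.83; edgeR adjusted p = 0.738). By absolute log2 fold change these ranked 3 and 5 of 15847. In both genes the SD exceeded the mean in each group. The Reg3a values, 1.15 ± 0.323 and 2.66 ± 1.55 CPM, gave a log2 fold change of 1.20 (SE 0.53). For Reg1 the values were 18.3 ± 19.0 and 7.21 ± 5.57 CPM, and the log2 fold change was -1.36 (SE 0.84). Reg4, at 47.1 ± 11.9 and 56.5 ± 27.4 CPM, gave 0.26 (SE 0.35; edgeR adjusted p = 0.825). An absolute log2 fold change of at least 1 was reached by 4 of the 5 members and by 3.56% of all genes, and without NECA replicate 2 by 0 of the 5 and by 3.54% of all genes. The median over the 5 was 1.20, beside -0.01 over all genes tested, and 0.41 without NECA replicate 2.

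Single libraries set the size of these differences. Without NECA replicate 2, Reg3b differed by 0.42 (SE 1.71) and Reg3g by 0.41 (SE 1.23). Without DMSO replicate 3 they differed by 8.94 (SE 2.57) and 6.56 (SE 2.17), with an edgeR adjusted p of 0.640 for each. Without DMSO replicate 1 the Reg1 difference was -0.05 (SE 0.69), and without NECA replicate 1 it was -2.15 (SE 0.93). Reg3a differed by 0.77 (SE 0.55) without NECA replicate 2 and by 1.60 (SE 0.40) without NECA replicate 3. Reg4 changed sign without NECA replicate 1, to -0.19 (SE 0.27).

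**Figure D3:**
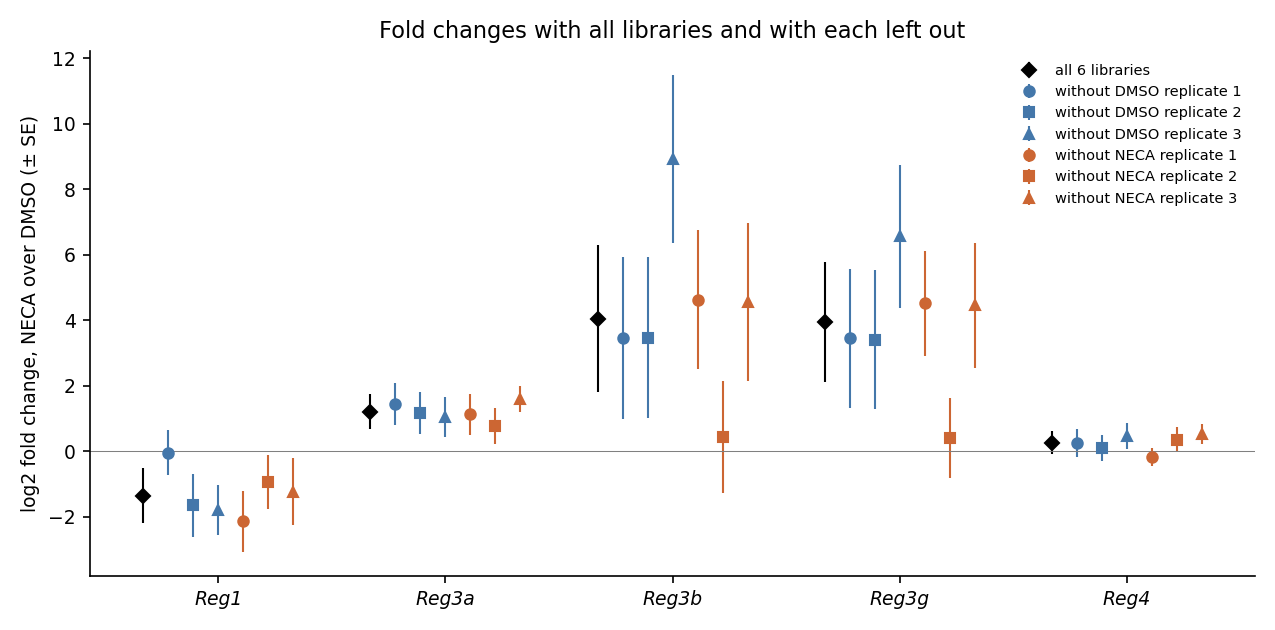
Log2 fold change of NECA over DMSO with its SE for each Reg gene, with all 6 libraries (black) and with each DMSO (blue) or NECA (orange) library left out. Reg3b runs from 0.42 without NECA replicate 2 to 8.94 without DMSO replicate 3, and Reg4 stays near 0.

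The mix of Reg transcripts differed from library to library. Levels of different genes were compared per length, as FPKM. The 5 genes summed to 99.7, 48.3 and 374 FPKM in the DMSO replicates and to 134, 5026 and 299 FPKM in the NECA replicates. Reg4 led in DMSO replicates 1 and 2 and in NECA replicate 1, with 46.4%, 69.4% and 64.1% of the sum. Reg3b led in the other libraries, with 74.2% in DMSO replicate 3, 88.2% in NECA replicate 2 and 77.1% in NECA replicate 3. Reg1 made up 44.1% in DMSO replicate 1 and 0.0521% in NECA replicate 2. The libraries led by Reg3b thus came from both groups.

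**Figure D4:**
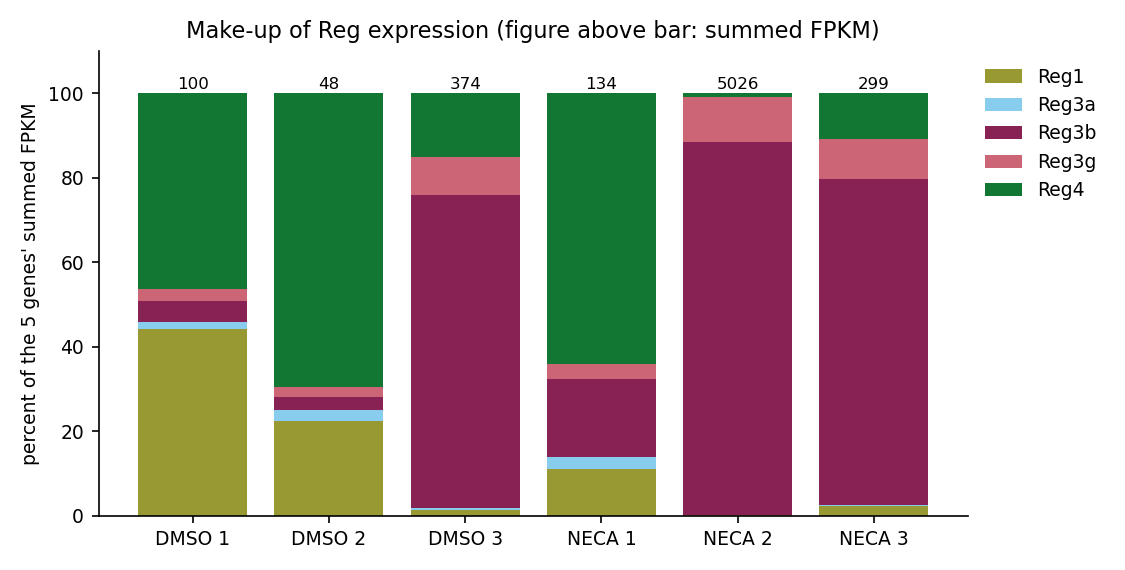
Share of each Reg gene in the summed FPKM of the 5 genes, in percent, for each library, with the summed FPKM above each bar. Reg3b takes 74.2% to 88.2% in DMSO replicate 3 and NECA replicates 2 and 3, and Reg4 takes 46.4% to 69.4% in the others.

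Reg3b and Reg3g did not keep 1 ratio. Reg3b was 1.71, 1.27 and 8.40 times Reg3g in FPKM in the DMSO replicates and 5.23, 8.25 and 8.16 times in the NECA replicates. The 3 libraries with most of both genes had nearly the same ratio, and the 2 with least had the lowest. The log2 ratio of Reg3g over Reg3b was -1.40 ± 1.47 in DMSO and -2.82 ± 0.38 in NECA (SD, n = 3 per group), a difference of -1.42. An exact two-sided permutation test gave p = 0.40, where 3 against 3 cannot go below 0.10. The FPKM follow the summed length of all annotated exons, which for Reg3g is 2114 bases because 1 of its 2 transcripts retains introns, against 771 bases in its main transcript. Per kilobase of the main transcript, Reg3b was 4.34 to 4.47 times Reg3g in the 3 libraries with most of both, and 0.912 and 0.674 times Reg3g in DMSO replicates 1 and 2, so that which gene was higher in those 2 depends on the length used. The order of Reg1 and Reg4 in DMSO replicate 1 also depends on it, with Reg4 higher in FPKM and Reg1 higher per main transcript.

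The members are related in sequence, which bears on how reads are assigned. The coding sequences of Reg3b and Reg3g were identical at 76.4% of aligned bases, and the longest run the transcripts shared was 35 bases. That was the longest of all 21 pairs of the 7 family genes. The sources used here do not give the read length or the treatment of reads that match several places, and its part in these levels was not tested.

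Among the genes with profiles most like those of Reg3b and Reg3g were ileal genes of bile acid handling. Likeness was the root mean square difference over the 6 libraries between log2(CPM + 1) values, each gene centred on its own mean. It was taken among 9705 genes with a mean of at least 10 CPM over the 6 libraries. Members and genes with a Gm, Rik or clone name were left out. For Reg3b the nearest were Fgf15 (1.38), the ileal hormone made in response to bile acids, Fabp6 (1.39), the ileal bile acid binding protein, and ccdc198 (1.97). Reg3b and Reg3g themselves were 1.07 apart. The genes nearest to Reg3g were Fgf15 (0.928), ccdc198 (1.003) and Guca2a (1.21), which encodes the gut peptide guanylin. Fabp6 was at 0.0558, 0.201 and 135 CPM in the DMSO replicates and at 0, 1913 and 149.6 CPM in the NECA replicates. Fgf15 had 0, 0 and 231 counts in the DMSO replicates, against 65, 1949 and 549 in the NECA replicates. The 3 libraries high in Fabp6 and Fgf15 were those high in Reg3b and Reg3g.

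The summed ileal list was highest in the same 3 libraries as Reg3b and Reg3g. Its 7 genes came to 252, 271 and 597 CPM in the DMSO replicates and to 360, 2881 and 699 CPM in the NECA replicates, with 0 to 2 genes at 0 in a library. All 7 had higher fitted values in NECA (median 1.92; 0.73 without NECA replicate 2), and 0 passed the edgeR or the DESeq2 test, with 2 at an unadjusted p under 0.05 in each. The 9 jejunal and duodenal genes summed to 6122 to 7798 CPM in DMSO and to 7806, 602 and 6981 CPM in NECA, lowest in NECA replicate 2. All 9 were lower in NECA (median -0.64, and -0.39 without NECA replicate 2); edgeR called 0 of them and had 2 at an unadjusted p under 0.05. The DESeq2 calls were 2, Pdx1 and Ada, beside 0.0694% of all genes, and Ada was named after its values were seen. Pdx1, which encodes a regulator of duodenal and pancreatic identity, was at 15.7, 10.9 and 2.31 CPM in the DMSO replicates and below all of these, at 1.87, 0.199 and 0.632 CPM, in the NECA replicates. Gata4, which keeps proximal small intestine from taking on ileal features, was at 137 to 162 CPM in DMSO libraries and at 145, 30.4 and 135 CPM in NECA. The part that position along the bowel has in the Reg3b and Reg3g values was not tested. In bulk tissue, fewer cells of a type and less RNA per cell cannot be told apart.

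**Figure D5:**
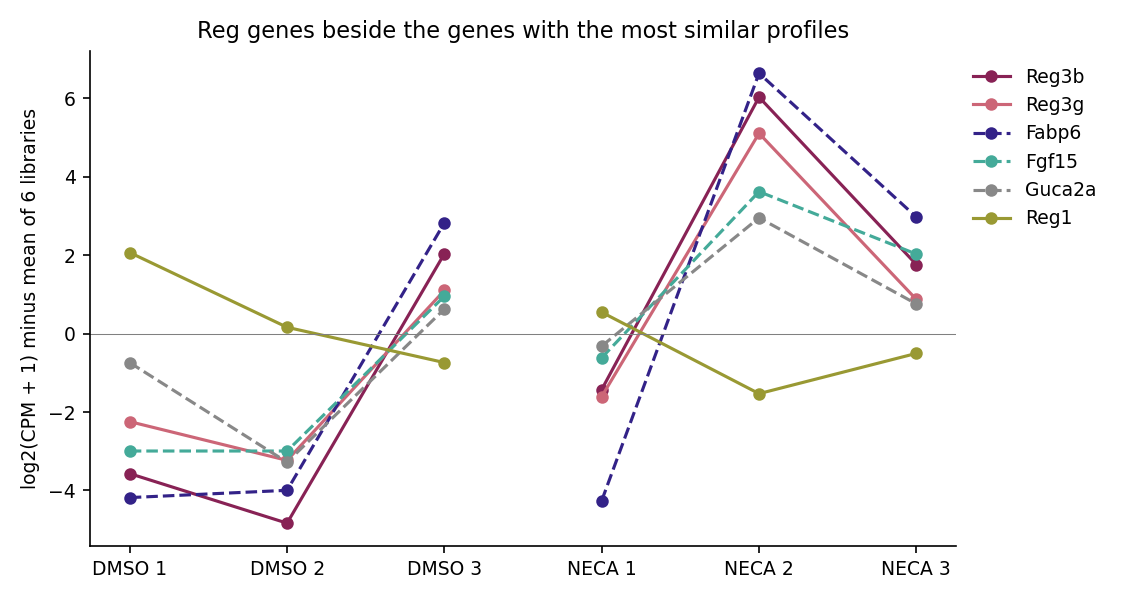
Log2(CPM + 1) minus each gene's mean over the 6 libraries, for Reg3b, Reg3g and Reg1 (solid) and for Fabp6, Fgf15 and Guca2a (dashed). Lines only join the points of a gene within a group. Reg3b, Reg3g, Fabp6, Fgf15 and Guca2a are above their means in DMSO replicate 3 and NECA replicates 2 and 3, where Reg1 is below its mean.

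Paneth cells, a source of Reg3 proteins, also had markers that were highest in NECA replicate 2, 8 of the 11 listed. The 11 markers summed to 77.6, 21.9 and 190.1 CPM in the DMSO replicates and to 79.5, 316 and 188 CPM in the NECA replicates. Defa24, an alpha-defensin, was at 36.4, 7.16 and 130.0 CPM and at 57.4, 191 and 138 CPM. Defa17, a scarcer alpha-defensin named after its values were seen, had 4, 1 and 51 counts in the DMSO libraries, against 11, 610 and 36 with NECA (log2 fold change 3.26, SE 1.55). Alpha-defensin genes are near-identical copies, so counts of single ones are uncertain. Lyz1, the Paneth cell lysozyme, was at 6.36, 5.15 and 13.2 CPM and at 7.30, 25.7 and 15.4 CPM. The protease Mmp7 had a log2 fold change of 1.43 (SE 1.06) and the lectin Itln1 one of 0.85 (SE 0.85). Of 10 tested markers, 7 were higher and 3 lower in NECA (median 1.06; 0.37 without NECA replicate 2), and 0 passed the edgeR or the DESeq2 test, with 1 at an unadjusted p under 0.05 in each. The 3 lower were Ang4 (-0.85, SE 0.75), Habp2 (-0.16, SE 0.38) and Nupr1 (-0.08, SE 0.58), named after their values were seen. The part of Paneth cells in the Reg3 values was not tested.

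The pathway known to induce Reg3 genes had a median close to that of all genes. Of its 24 genes 19 were tested, 6 higher and 13 lower in NECA, with a median of -0.04 beside -0.01 over all genes. In both edgeR and DESeq2 0 passed, with 1 at an unadjusted p under 0.05. Without NECA replicate 2, 10 of the 19 were higher and 9 lower, with a median of 0.002 beside -0.02 over all genes. Il22, the inducing cytokine of innate lymphoid cells, had 1 count in DMSO replicate 1 and 0 in the other libraries. Its receptor chain on epithelium, Il22ra1, was at 64.5, 23.8 and 62.6 CPM in DMSO libraries and at 74.7, 69.0 and 79.9 CPM in NECA, so that the groups did not overlap (log2 fold change 0.57, SE 0.34; edgeR adjusted p = 0.738). Il10rb, the other chain of that receptor, gave -0.25 (SE 0.25). Stat3, the transducer, was level at 199 to 206 CPM in DMSO and 199 to 211 CPM in NECA.

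Socs3, a target and feedback inhibitor of STAT3, was at 26.1, 32.4 and 23.3 CPM in DMSO libraries and at 39.3, 39.1 and 35.8 CPM in NECA. Every NECA library lay above every DMSO library (0.48, SE 0.16; edgeR adjusted p = 0.738, unadjusted 0.0197). Myd88, the adaptor of bacterial sensing, was at 38.2, 41.5 and 37.6 CPM in DMSO libraries and at 31.5, 35.0 and 34.4 CPM in NECA, again without overlap (-0.22, SE 0.13). Groups without overlap were seen in 4 of the 19 tested genes, beside 13.7% of all genes. Extl3, proposed as a receptor for Reg proteins, gave 0.12 (SE 0.15). From lowest to highest library, Stat3 spanned 1.06-fold, Socs3 1.69-fold, Myd88 1.32-fold, Il10rb 2.16-fold and Il22ra1 3.35-fold, where Reg3b spanned 2942-fold. Il18, of the same list, was highest in NECA replicate 2 and is described below. These are transcript levels, and the activity of the proteins was not measured. The part of this pathway in the Reg3 values was not tested.

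Other epithelial defence genes that bacteria or STAT3 induce had no single order of libraries. Fut2, which fucosylates the gut surface, was at 9.71, 0.468 and 3.19 CPM in DMSO libraries and at 0.129, 13.2 and 1.44 CPM in NECA. The acute-phase gene Saa1 was at 10.7, 0 and 1.44 CPM and at 0.388, 12.2 and 0.632 CPM. Both were high in DMSO replicate 1 and NECA replicate 2, whereas Reg3b was low in DMSO replicate 1. Duox2, an epithelial oxidase, was at 5.91, 0.335 and 4.81 CPM and at 0.388, 36.5 and 3.16 CPM. Lcn2, which binds bacterial siderophores, stayed between 0.535 and 3.62 CPM. Pigr, the carrier of secreted antibodies, was at 230 to 636 CPM in DMSO and 423 to 448 CPM in NECA. Of 13 tested genes of this list 11 were higher and 2 lower (median 0.15), and 3 were higher and 10 lower without NECA replicate 2 (median -0.37). With all libraries 0 of the 13 passed the edgeR or the DESeq2 test, and 0 had an unadjusted p under 0.05 in either.

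For Reg1 the nearest profiles were those of Ces2c (0.360), a carboxylesterase, Papss2 (0.465), which makes the sulfate donor of the cell, and Treh (0.544), the brush-border trehalase. Ces2c was at 37.0, 9.37 and 6.81 CPM in the DMSO replicates and at 16.8, 5.63 and 7.69 CPM in the NECA replicates, in each case highest in replicate 1. The pancreas is another known source of Reg1. Its enzymes Cpa1 and Prss2 had 1 and 7 counts in DMSO replicate 1, where Reg1 was highest, and 0 to 2 counts of either in the other libraries. Of the 15 acinar genes, 1 was at 0 in DMSO replicate 1 and 7 to 10 in each of the others. Their sum had another order of libraries than Reg1, at 78.3, 59.4 and 103.5 CPM in DMSO and 92.2, 8.08 and 106.8 CPM in NECA. Most of it came from Cela1, Ctrb1 and Clps, named after their values were seen. These had 452, 1289 and 104 counts in NECA replicate 3, where Prss1, Prss2 and Pnlip had 0. The sum therefore says little on how much acinar tissue a library held. DMSO replicate 1 also held 33 counts of Retnlb, a goblet cell product of the large bowel, which had 0 to 3 counts elsewhere, and 137 counts of Car1 and 28 of Hoxb13, both known from colon, which had 0 to 2. Car1 and Hoxb13 were named after their values were seen. The part of these tissues in the Reg1 values was not tested.

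Reg4 was compared with the markers of the cells that make it. The 13 enteroendocrine markers summed to 242 to 297 CPM in DMSO and to 249, 460 and 264 CPM in NECA, and the 9 goblet cell markers to 2279, 637 and 2508 CPM in DMSO and to 1132, 5205 and 1428 CPM in NECA. Both sums were highest in NECA replicate 2, where Reg4 was at 49.3 CPM, and neither was highest in NECA replicate 1, where Reg4 was at 86.8 CPM. Chga, the enteroendocrine chromogranin, was at 42.0, 37.3 and 45.4 CPM in DMSO libraries and at 42.5, 73.5 and 36.1 CPM in NECA. Muc2, the goblet cell mucin, was at 181, 46.7 and 135 CPM and at 64.1, 538 and 73.9 CPM. Tff3 and Spink4, other goblet cell products, were likewise highest in NECA replicate 2, at 1109 and 291 CPM. Of the goblet markers 8 were higher and 1 lower in NECA (median 0.52), and 0 were higher and 9 lower without NECA replicate 2 (median -0.51). Of the enteroendocrine markers 9 were higher and 4 lower (median 0.29), and 3 were higher and 10 lower without that library (median -0.08). In NECA replicate 2, 10 of these 13 were highest, and Cck and Gip were lowest. In both lists 0 passed the edgeR or the DESeq2 test. At an unadjusted p under 0.05, edgeR had 1 in each, Zg16 (goblet, -1.44) and Cck (-0.69), both lower in NECA. DESeq2 had 1 goblet and 3 enteroendocrine markers. Zg16, Cck and Gip were named after their values were seen.

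The genes nearest in profile to Reg4 were Mcc (0.233), Pstpip2 (0.236) and Rnf125 (0.237), all at 10.8 to 40.1 CPM. For Reg3a they were Egln3 (0.220), an oxygen-sensing hydroxylase, Arfgef3 (0.246) and Fkbp5 (0.271), a glucocorticoid-induced chaperone. Reg3a and Reg4 varied less than the other members on the log2(CPM + 1) scale, which leaves smaller distances to other genes. They were 0.499 apart from each other. Their SDs on that scale were 0.213 and 0.369 in DMSO, where the median gene had 0.205. In NECA they were 0.702 and 0.680, where the median gene had 0.228. Adding 1 damps the changes of Reg3a, which lay at 0.875 to 4.04 CPM.

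Reg3 genes are known to rise as the gut matures, so markers of enterocyte age are given beside them. Lct, the lactase of suckling enterocytes, was at 1986 to 2603 CPM in DMSO libraries and at 2241, 98.2 and 2040 CPM in NECA, lowest in NECA replicate 2. Sis, the sucrase of weaned animals, was at 13.8, 6.09 and 7.19 CPM in DMSO libraries and at 10.99, 14.0 and 6.49 CPM in NECA. Sis in NECA replicate 2, the library with most Reg3b, was close to its value in DMSO replicate 1, where Reg3b was at 5.58 CPM. The 3 weaning markers together were lowest in NECA replicate 2, at 17.9 CPM against 24.3 to 83.6 CPM in the others (2 of the 3 were lowest there). The 8 suckling markers summed to 2429 CPM there and to 11283 to 14443 CPM in the others, but 4 of the 8 were lowest in that library, Lct among them, and the other 4 were not. The part of enterocyte age in the Reg3 values was not tested.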

How the data were processed

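For each of the 6 libraries the deposited table pairs each gene's raw count with an FPKM value from the authors, per the file headers. Per the labels' protocols, the libraries were SMARTer complementary DNA amplified with PCR before paired-end sequencing, and reads amplified without molecular identifiers are not independent molecules. The submitters' processing notes name HISAT, StringTie and edgeR and the builds mm10 and GRCm38. The sources used here do not give versions, the strand setting or the treatment of multiply matching reads. The deposited FPKM were the counts divided by 1 length per gene and 1 factor per library (largest relative deviation 1.1e-08), and for the Reg genes that length was proportional to the union of GENCODE M21 exons. Replicate libraries were not identical in any pair.

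Counts were filtered with filterByExpr (minimum count 10, minimum total 15), scaled with TMM and tested with edgeR 4.0.16 in R 4.3.3 (glmQLFit, glmQLFTest), two-sided, over all genes, with Benjamini-Hochberg adjustment and a threshold of 0.05. The SE is the log2 fold change over the square root of F. Levels are TMM-normalised CPM. The ratio was tested with an exact permutation test (scipy 1.17.1). In counts simulated for NECA against DMSO (15650 genes tested), 33.7% of genes changed 2-fold and 92.8% of those changed 4-fold were recovered, with 2 false calls. The simulated counts had the spread typical of genes at the same level and no outlying library. Reg3b and Reg3g varied far more within a group than the median gene, so these shares do not apply to them. Alternatives were DESeq2 1.42.0 (test and size factors), other filters, a replicate block and each library left out. The values of 8 gene lists without NECA replicate 2, and the median and size counts of the members without it, were added after seeing the data. Named genes were the 5 members, a fixed set from 17 lists and the 3 nearest profiles per member. The members and lists were chosen with earlier results of these data known. Promoter sequences are from RefSeq (GRCm38.p6), in which 7 of 7 family genes were matched by symbol, and transcript sequences from GENCODE M21.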

Additional observations from a re-analysis of the deposited data

How the results depend on the processing

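Depth limits Reg3a, at 14 to 81 counts a library, and Reg3b and Reg3g in DMSO replicate 2, at 26 and 38 counts. The number of genes called was 0 with edgeR, 2 without the filter on low counts and 11 with the DESeq2 test; none of them was a Reg gene. It was 0 without each library in turn and 0 with the replicate block. Leaving out each library gave 0.42 to 8.94 for Reg3b, 0.41 to 6.56 for Reg3g, 0.77 to 1.60 for Reg3a, -2.15 to -0.05 for Reg1 and -2.26 to -0.90 for the log2 ratio of Reg3g over Reg3b. For Reg4 the range was -0.19 to 0.53, the reversal occurring without NECA replicate 1. The cause was not tested. Reg3a could not be fitted under the filter of 5 CPM in 3 libraries, which removed it. All other alternatives kept the direction and the side of the threshold of each Reg gene and of the ratio. No label says that replicate numbers pair the samples. Same-numbered libraries had deviations correlated at 0.04, -0.19 and -0.05, and not every library correlated best with its own number. With 3 libraries a group this does not settle whether they pair. With the replicate block Reg3b differed by 2.92 (SE 2.46), Reg3g by 1.89 (SE 1.96), Reg3a by 1.05, Reg1 by -1.15 and Reg4 by 0.19, and the ratio had p = 0.50 in an exact sign-flip test.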

Other observations

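Among the inducible epithelial genes not yet described, Steap4 and Saa3 were highest in DMSO replicate 1, the library with most Reg1 and little Reg3b, and others in NECA replicate 2. All genes given here were named after their values were seen. Steap4, a metalloreductase, had 605, 51 and 36 counts in the DMSO replicates, against 41, 89 and 26 in the NECA replicates. Saa3, an acute-phase gene, had 260, 26 and 11 counts in DMSO against 33, 206 and 90 in NECA. Nos2, the inducible nitric oxide synthase, had 32, 9 and 37 counts in DMSO against 10, 246 and 23 in NECA, and Duoxa2, the partner of Duox2, had 26, 4 and 18 against 3, 263 and 22. NECA replicate 2 was the highest library for Nos2 and Duoxa2, as for Reg3b and Reg3g. Il18, an epithelial cytokine, had 135, 66 and 235 counts in DMSO against 124, 628 and 260 in NECA, highest in NECA replicate 2 (log2 fold change 1.03, SE 0.57). Of the 3 tested neutrophil markers 1 was higher in NECA, Ltf, and 2 were lower, Csf3r and Ngp. Csf3r and Ngp had an unadjusted edgeR p of 0.0182 and 0.0385, and 0 of the 3 passed the edgeR or the DESeq2 test. The 9 of the list summed to 6.66 to 22.4 CPM. That sum was highest in NECA replicate 2, where Ltf had 415 of the 450 counts and Csf3r and Ngp were lowest. The 6 markers of type 3 innate lymphoid cells, a source of interleukin 22, summed to 71.1 CPM in NECA replicate 2 and to 125 to 169 CPM in the others.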
